A study of Mus musculus with 6 samples.

Results

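The genes described here are 10 members of the transforming growth factor beta (TGF-beta) system measured in infarcted mouse hearts: the ligand genes Tgfb1, Tgfb2 and Tgfb3, the receptor genes Tgfbr1, Tgfbr2 and Tgfbr3, the latent binding protein genes Ltbp1, Ltbp2 and Ltbp3, and the feedback inhibitor gene Smad7. They were taken by symbol from the 17524 genes of the table, and all 10 were found and passed the filter on low counts, as did 13565 genes in all. RNA was sequenced from 6 libraries of heart tissue, all after ligation of the anterior descending branch of the left coronary artery, which causes a myocardial infarction. The 3 controls (libraries 35, 36 and 37) have the genotype WT, and the 3 libraries labelled TFEB overexpression (34, 41 and 43) come from the R26-LSL-TFEB [+/+]; Acta2-cre line. In that line a cassette for the lysosomal transcription factor TFEB at the Rosa26 locus is switched on by Cre in cells in which the Acta2 promoter is active, chiefly smooth muscle and myofibroblasts. The series asked how TFEB acts on cardiac fibroblasts early after infarction. The sources used here give no age, sex or time after ligation. Whether the controls carry Cre or the cassette is not stated; without them, an effect of either cannot be told apart from that of TFEB. The labels do not tie libraries to separate animals, and each p-value therefore covers the spread between these libraries only.

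TGF-beta ligands are secreted in a latent form, bound to their own propeptide and, through it, to a latent TGF-beta binding protein that anchors the complex to fibrillin microfibrils and other matrix. Integrins, thrombospondin-1 or proteases free the ligand, which binds the type II receptor TGFBR2. TGFBR2 then recruits and activates the kinase TGFBR1, and SMAD2 and SMAD3 carry the signal to the nucleus. In the infarcted heart this pathway is known for turning resident fibroblasts into matrix-producing myofibroblasts, while SMAD7 is induced by the signal and shuts the receptor down.

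Promoter windows are shown for 3 members. They are Tgfb1, the ligand whose level varied least, Ltbp2, whose level varied most, and Tgfb2. Tgfb2 alone among the 7 members with a window holds the E-box that TFEB and its relatives can bind. No link between a motif and the level of a gene was tested. Each window spans 250 bases before and 50 bases after a RefSeq transcription start in build GRCm38.p6 (mm10), printed 5′ to 3′ on the gene's own strand. Capitals mark exact matches, on either strand, to the E-box CACGTG, the GC box GGGCGG, the TATA box TATAAA and the palindromic SMAD box GTCTAGAC. None of these motifs overlapped in the windows shown.
Tgfb1, chr7:25686752-25687051, plus strand: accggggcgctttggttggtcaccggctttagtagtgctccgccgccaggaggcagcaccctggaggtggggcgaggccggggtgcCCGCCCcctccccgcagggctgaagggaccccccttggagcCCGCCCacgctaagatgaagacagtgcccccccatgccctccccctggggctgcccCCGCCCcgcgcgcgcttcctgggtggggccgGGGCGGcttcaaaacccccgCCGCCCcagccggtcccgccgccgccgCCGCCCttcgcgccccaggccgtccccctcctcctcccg
Tgfb2, chr1:186705940-186706239, minus strand: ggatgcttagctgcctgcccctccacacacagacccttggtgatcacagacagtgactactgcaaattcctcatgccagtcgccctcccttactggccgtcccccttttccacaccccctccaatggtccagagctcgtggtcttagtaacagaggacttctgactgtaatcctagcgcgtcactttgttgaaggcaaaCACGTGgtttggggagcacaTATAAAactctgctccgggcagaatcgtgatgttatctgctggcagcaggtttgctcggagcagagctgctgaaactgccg
Ltbp2, chr12:84876442-84876741, minus strand: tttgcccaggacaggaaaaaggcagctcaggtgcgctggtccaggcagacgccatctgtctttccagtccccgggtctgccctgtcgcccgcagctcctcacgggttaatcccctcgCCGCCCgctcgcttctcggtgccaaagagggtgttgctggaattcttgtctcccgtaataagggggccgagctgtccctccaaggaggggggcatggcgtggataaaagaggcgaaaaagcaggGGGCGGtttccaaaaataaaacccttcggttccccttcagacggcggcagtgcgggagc

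The RefSeq promoter table held 9 windows for 7 of the 10 members; Tgfb3, Tgfbr3 and Smad7 had none. The Tgfb2 window held 1 E-box, from base -51 to base -46 relative to the start, and 1 TATA box, from base -31 to base -26. The Tgfb1 window held 6 GC boxes and the Ltbp2 window 2, with no E-box in either. Among the windows of the other members, 1 of Tgfbr1 held 2 GC boxes, and the windows of Tgfbr2, Ltbp1 and Ltbp3 held none of these letters. Over all 32851 windows of the table, 7.15% held the E-box, 35.7% the GC box, 13.6% the TATA box and 0.213% the SMAD box. A match is a description of the letters and not of binding.

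Library totals ran from 12942480 to 14969287 estimated counts. The labels name heart tissue and also primary fibroblasts, but transcripts of heart muscle were abundant. All 12 cardiomyocyte markers were expressed, and their summed CPM ran from 87945 to 116530 in control and from 72559 to 129453 in TFEB overexpression. CPM is a count scaled to a common depth through the TMM-adjusted library total. The 12 resident fibroblast markers had sums of 4190 to 5887 CPM (control) and 3648 to 4225 CPM (TFEB overexpression), with none at 0. In such bulk tissue, fewer cells of a type and less RNA per cell cannot be told apart. Tfeb itself stood at 34.4, 33.8 and 41.4 CPM in the controls and 45.4, 45.3 and 39.4 CPM in TFEB 34, 41 and 43, so the groups overlapped at TFEB 43. It averaged 36.6 ± 4.20 CPM over controls and 43.3 ± 3.40 CPM over TFEB overexpression libraries (SD, n = 3 each; edgeR adjusted p = 1.00).

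In TFEB overexpression against control, no TGF-beta gene passed the test. The quasi-likelihood test of edgeR, with Benjamini-Hochberg adjustment over all 13565 genes, called a gene at an adjusted p under 0.05. It called 0 of the 10 members and 0% of all genes. At an unadjusted p under 0.05 it had 0 of 10 members and 1.21% of all genes, and DESeq2 called 0 of 10 members and 0.00737% of all genes. The unadjusted edgeR p of the members ran from 0.284 for Tgfbr3 to 0.871 for Tgfbr2. The values of the groups overlapped in all 10 members, while 4.75% of all genes had groups that did not overlap. The value was higher in TFEB overexpression for 7 members and lower for Tgfbr2, Tgfbr3 and Ltbp1. Their median log2 fold change was 0.23, beside 0.003 over all genes tested, of which 51% had a higher value.

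**Figure D1:**
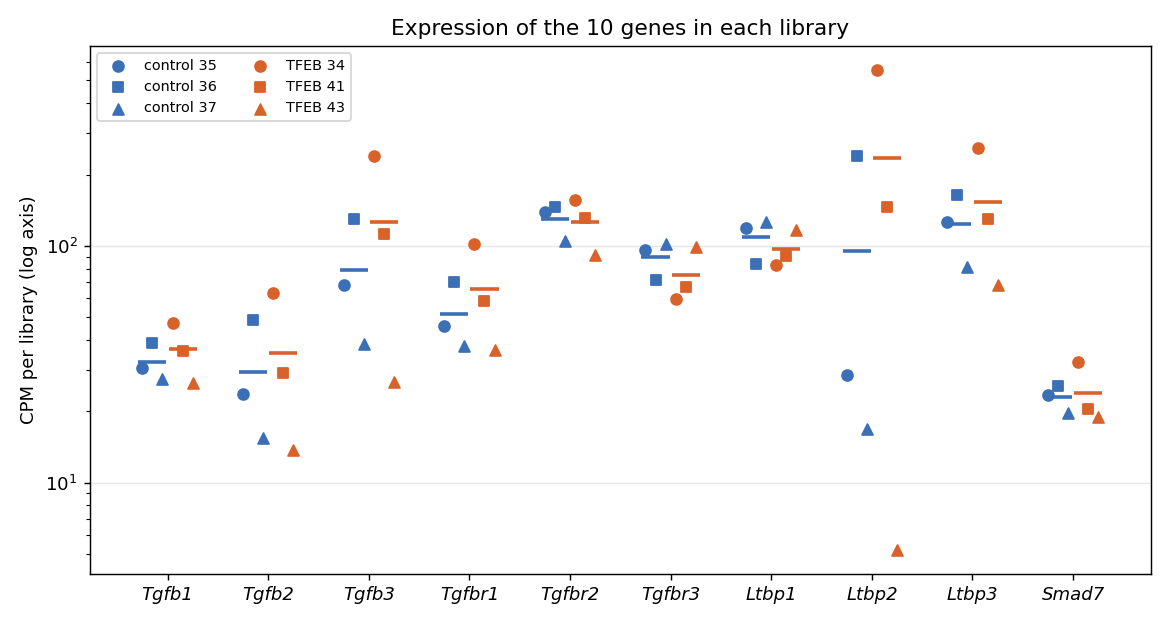
CPM on a log axis (y) of the 10 genes (x) in each of 3 control (blue) and 3 TFEB overexpression (orange) libraries; symbols stand for libraries and bars for group means. The colours overlap for every gene, and the spread is widest for Ltbp2, from 5.21 CPM in TFEB 43 to 553 CPM in TFEB 34.

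The 3 ligands were expressed in every library, and Tgfb3 had the widest range. Tgfb1 (Entrez 21803, mm10 chromosome 7, 25687002 to 25705077) encodes the ligand best known for driving fibrosis. Its level was 30.6, 38.7 and 27.3 CPM in the controls (35, 36 and 37), against 47.3, 35.8 and 26.4 CPM in TFEB 34, 41 and 43. TFEB 34 was the highest library and TFEB 43 the lowest, so the TFEB group enclosed all 3 controls. The ratio of TFEB overexpression to control was 1.13 (95% interval 0.764 to 1.69; log2 fold change 0.18, SE 0.24; edgeR adjusted p = 1.00). 

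Tgfb2 (Entrez 21808, chromosome 1, 186622787 to 186709697), the gene with the E-box shown above, is the ligand most tied to heart valve and endocardial development. Its level was 23.6, 48.5 and 15.5 CPM in the controls (35, 36 and 37), against 62.9, 29.1 and 13.7 CPM in TFEB 34, 41 and 43. The order of the libraries was that of Tgfb1, with TFEB 34 and control 36 on top. For Tgfb2 the ratio was 1.21 (95% interval 0.427 to 3.43; log2 fold change 0.27, SE 0.62; edgeR adjusted p = 1.00).

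Tgfb3 (Entrez 21809, chromosome 12, 86056743 to 86079041) encodes the third ligand, known for its part in palate fusion and expressed by fibroblasts. Its level was 68.6, 130 and 38.4 CPM in the controls (35, 36 and 37), against 239, 112 and 26.6 CPM in TFEB 34, 41 and 43. Within TFEB overexpression the highest library was 8.975 times the lowest, and within control 3.38 times. The ratio of TFEB overexpression to control was 1.60 (95% interval 0.434 to 5.88; log2 fold change 0.68, SE 0.78; edgeR adjusted p = 1.00). Without TFEB 34 the log2 fold changes of the ligands were -0.050 for Tgfb1, -0.45 for Tgfb2 and -0.18 for Tgfb3, and without control 37 that of Tgfb2 was -0.027.

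Among the receptors, Tgfbr1 had the library order of the ligands, Tgfbr2 nearly so, and Tgfbr3 ran the other way. Tgfbr1 (Entrez 21812, chromosome 4, 47353222 to 47414926), the type I receptor kinase, measured 45.9, 70.3 and 37.7 CPM in the controls (35, 36 and 37), against 101, 58.6 and 36.3 CPM in TFEB 34, 41 and 43. TFEB 34 was again the highest and TFEB 43 the lowest. Its log2 fold change was 0.35 (SE 0.40, ratio 1.28, 95% interval 0.649 to 2.51), or -0.11 without TFEB 34.

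Tgfbr2 (Entrez 21813, chromosome 9, 116087695 to 116175363), the type II receptor that binds the ligand, measured 139, 146 and 105 CPM in the controls (35, 36 and 37), against 157, 131 and 91.9 CPM in TFEB 34, 41 and 43. The group means, 130 ± 21.7 for control and 127 ± 32.6 CPM for TFEB overexpression (SD, n = 3 each), lay closer together than the libraries of either group. The log2 fold change was -0.038 (SE 0.22), with a ratio of 0.974 and a 95% interval from 0.670 to 1.42. Its sign changed without control 35, control 36 or TFEB 43 and with the cardiomyocyte level as a covariate.

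Tgfbr3 (Entrez 21814, chromosome 5, 107106567 to 107289629) encodes betaglycan, a co-receptor that presents TGF-beta 2 to the type II receptor. Its level was 96.4, 72.0 and 102 CPM in the controls (35, 36 and 37), against 59.4, 67.1 and 98.4 CPM in TFEB 34, 41 and 43. Here TFEB 34 was the lowest library, and the libraries low in the ligands, control 37 and TFEB 43, were the highest. The ratio of TFEB overexpression to control was 0.833 (95% interval 0.572 to 1.21; log2 fold change -0.26, SE 0.22; edgeR adjusted p = 1.00). It kept this sign with each library left out, from -0.51 to -0.12.

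The latent binding proteins differed most from each other. Ltbp1 (Entrez 268977, chromosome 17, 75005480 to 75392512), which binds the latent ligand covalently, measured 119, 83.5 and 126 CPM in the controls (35, 36 and 37), against 82.7, 90.5 and 117 CPM in TFEB 34, 41 and 43. Like Tgfbr3 it was lowest in TFEB 34 and highest in control 37. The ratio of TFEB overexpression to control was 0.884 (95% interval 0.631 to 1.24; log2 fold change -0.18, SE 0.20), and the log2 fold change was negative with each library left out.

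Ltbp2 (Entrez 16997, chromosome 12, 84783212 to 84876558) encodes a member of the family that sits on microfibrils and does not bind latent TGF-beta. Its level was 28.5, 239 and 16.8 CPM in the controls (35, 36 and 37), against 553, 147 and 5.21 CPM in TFEB 34, 41 and 43. The highest library was 106 times the lowest, both of them in TFEB overexpression, and the counts behind these values were 8697 and 63. The log2 fold change of Ltbp2, 1.31 (SE 1.54), had a 95% interval of the ratio from 0.189 to 32.5. It was 3.37 without control 36, -0.32 without TFEB 34 and 0.58 in limma-voom, which averages on the log scale.

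Ltbp3 (Entrez 16998, chromosome 19, 5740900 to 5758536), which also binds latent ligand and is known for its part in bone and tooth growth, measured 126, 164 and 81.3 CPM in the controls (35, 36 and 37), against 260, 130 and 68.4 CPM in TFEB 34, 41 and 43. Its order of libraries was that of the ligands. The log2 fold change was 0.30 (SE 0.50, ratio 1.24, 95% interval 0.539 to 2.83), or -0.32 without TFEB 34.

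Smad7 (Entrez 17131, chromosome 18, 75367365 to 75395935) is the inhibitor that the pathway itself induces. Its level was 23.4, 25.6 and 19.6 CPM in the controls (35, 36 and 37), against 32.3, 20.5 and 19.0 CPM in TFEB 34, 41 and 43. TFEB 34 stood above all other libraries, and TFEB 41 and 43 stood among or under the controls. The ratio of TFEB overexpression to control was 1.05 (95% interval 0.716 to 1.53; log2 fold change 0.066, SE 0.23; edgeR adjusted p = 1.00). Its log2 fold change was -0.21 without TFEB 34 and -0.033 without control 37.

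**Figure D2:**
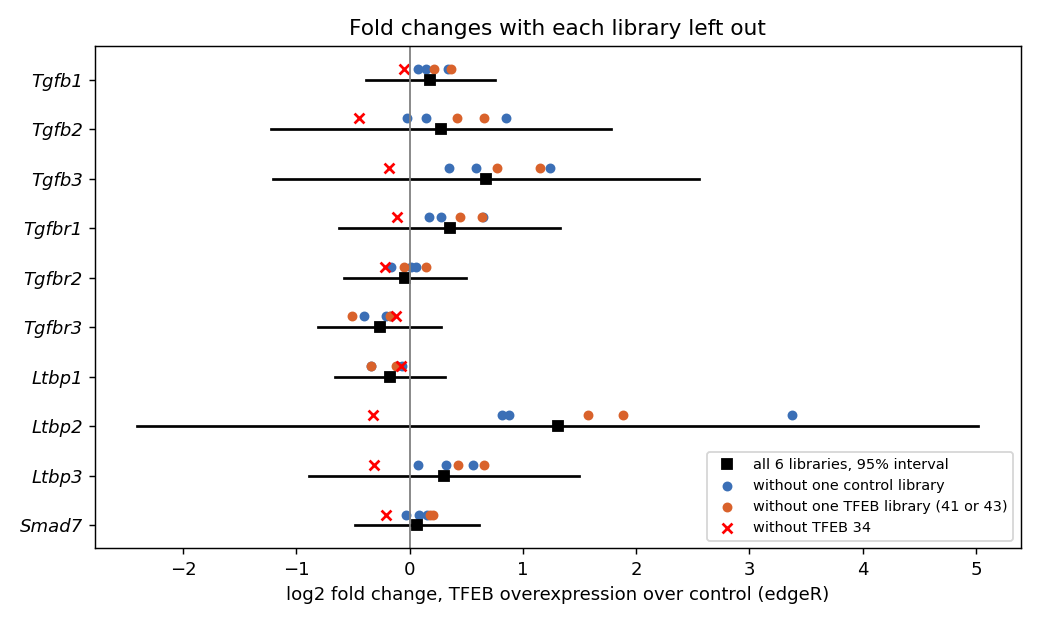
Log2 fold change of each gene, TFEB overexpression over control (x); black squares and lines give the edgeR value and its 95% interval over all 6 libraries, dots the value with 1 library left out and red crosses that without TFEB 34. Every interval spans 0, and without TFEB 34 all 10 values lie under 0, between -0.45 for Tgfb2 and -0.050 for Tgfb1.

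Most members varied together across libraries. In 6 of the 10, namely Tgfb1, Tgfb2, Tgfb3, Tgfbr1, Ltbp2 and Ltbp3, the libraries had the same order from high to low: TFEB 34, control 36, TFEB 41, control 35, control 37 and TFEB 43. This order was noted after the values were seen, and 3.96% of all genes tested had it. Tgfbr2 and Smad7 differed from it only in that control 35 stood above TFEB 41. TFEB 34 was the highest library for 8 members and the lowest for Tgfbr3 and Ltbp1. The SD of log2 CPM within groups had a median of 0.48 over the members and 0.22 over all genes. It ran from 0.29 for Ltbp1 to 2.83 for Ltbp2, whose spread exceeded that of 99.9% of genes. That of Ltbp1, the least variable member, still exceeded 63.3% of genes.

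The summed level of activated fibroblast markers moved with this order. The list holds 12 genes, of which Ltbp2 is one, and the other 11, among them periostin (Postn), Cthrc1 and Col1a1, were detected in every library. These 11 summed to 1879, 4316 and 593 CPM in controls 35, 36 and 37 and to 7947, 3702 and 341 CPM in TFEB 34, 41 and 43. Their sum and their mean log2 level had the order of the 6 members above, highest in TFEB 34 and lowest in TFEB 43. Not every single marker did. Postn and Cthrc1 had this order, but Col1a1 stood higher in TFEB 41 (1678 CPM) than in control 36 (1511 CPM). Tnc was highest in TFEB 41 (111 CPM) and Adam12 in control 36 (23.6 CPM). Macrophage markers, 12 of 12 expressed, had sums of 628 to 1091 CPM (control) and 554 to 1542 CPM (TFEB overexpression), with the same top and bottom library. Adipocyte markers had the largest median difference of the 8 marker lists, -3.79 on the log2 scale. Of the 8 adipocyte markers 6 were tested, and each of the 6 was lower in value in TFEB overexpression. The groups did not overlap in 4 of the 6, beside 4.75% of all genes, and 0 passed the test. All 8 summed to 500.4 to 791 CPM in control and 357 to 498 CPM in TFEB overexpression, with no marker at 0 in all libraries. This sum includes Fabp4, which is also in the endothelial list. The 4 tested of 7 platelet markers also had a lower value (median -1.36). Of the smooth muscle and pericyte list, 12 of 12 genes were higher in value (median 0.29), and of the endothelial list 4 of 12 (median -0.049). The smooth muscle and pericyte sums overlapped, at 3211 to 4888 CPM in control and 4054 to 5550 CPM in TFEB overexpression. In that list 0 genes passed the test, and the groups did not overlap in 1, Acta2, beside 4.75% of all genes. The part of these cells in the values of the members was not tested.

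With the mean log2 level of the 11 activated fibroblast markers as a covariate, the log2 fold changes of the members lay between -0.23 and 0.19, with a median of 0.030 in place of 0.23. Of these 11 markers, 9 are also in the list of genes known to respond to TGF-beta, described below. The value of Tgfb3 was then 0.15 (SE 0.14) in place of 0.68, that of Ltbp2 0.13 (SE 0.35) in place of 1.31, and that of Tgfb2 0.014 (SE 0.20). Tgfbr3 stood at -0.23 (SE 0.080), with an unadjusted edgeR p of 0.0264 and an adjusted p of 1.00. The unadjusted edgeR p of the other members ran from 0.225 for Tgfbr2 to 0.988 for Smad7 in this fit. The share of all genes with an unadjusted p under 0.05 was not taken for it. With the mean log2 level of the 12 cardiomyocyte markers as the covariate, Tgfb3 stood at 0.66 and Ltbp2 at 1.05. That mean level did not follow the summed CPM of the same markers. It was lowest in control 35 (-0.33) and highest in TFEB 41 (0.19). The sum was lowest in TFEB 34 (72559 CPM) and highest in TFEB 43 (129453 CPM), the reverse of the ligands. Myh6 likewise ran from 23129 CPM in TFEB 34 to 49163 CPM in TFEB 43. A fit with the sum as covariate was not run.

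**Figure D3:**
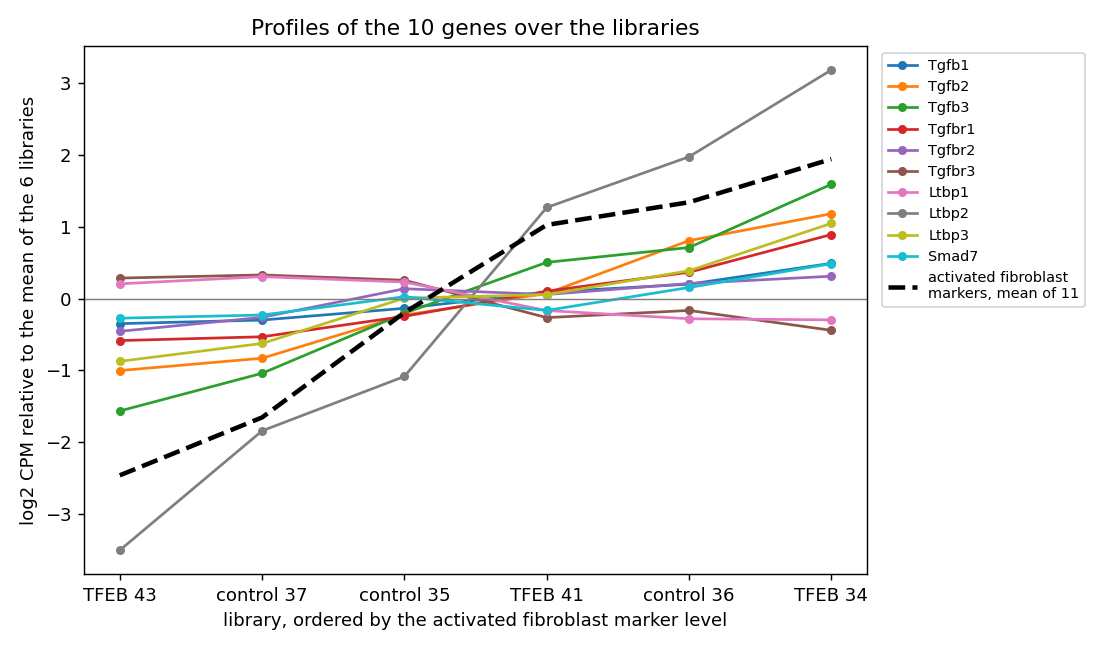
Log2 CPM of each gene relative to its mean over the 6 libraries (y), with the libraries ordered along x by the mean level of 11 activated fibroblast markers (dashed). Ltbp2 and Tgfb3 climb from TFEB 43 to TFEB 34, and Tgfbr3 and Ltbp1 are higher in the 3 libraries on the left than in the 3 on the right.

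Within each class, the mix of genes also followed the library. Levels of different genes were compared as TPM, which accounts for transcript length. In control, Tgfbr2 was the most abundant member at 47.9 ± 10.6 TPM, followed by Ltbp3 at 45.2 ± 18.0, Tgfb3 at 42.4 ± 27.2, Ltbp1 at 31.8 ± 5.22, Tgfb1 at 28.0 ± 6.70, Ltbp2 at 25.6 ± 34.4 and Tgfbr3 at 25.1 ± 3.23 TPM (SD, n = 3 each). Below these stood Tgfbr1 at 15.5 ± 6.06, Tgfb2 at 9.98 ± 6.51 and Smad7 at 9.32 ± 1.99 TPM. Of the neighbours in this order, the step from Tgfbr3 to Tgfbr1 was the one larger than both SDs. The order was not the same in every library: in control 36, Tgfb3 at 72.1 TPM stood above Tgfbr2 at 56.5 TPM. In TFEB overexpression Tgfb3 had the highest mean, 69.8 ± 62.7 TPM, but the leading member was Ltbp2 at 156 TPM in TFEB 34, Tgfb3 at 59.5 TPM in TFEB 41 and Ltbp1 at 31.5 TPM in TFEB 43. Smad7 was the lowest member in TFEB 34 and TFEB 41, at 14.6 and 8.78 TPM, and Ltbp2 in TFEB 43, at 1.26 TPM.

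Tgfb3 made up 51.3%, 57.9% and 41.3% of the ligand TPM in controls 35, 36 and 37 and 67.0%, 59.2% and 33.9% in TFEB 34, 41 and 43. Tgfb1 made up 28.3% to 48.3% in control and 21.8% to 55.1% in TFEB overexpression. It was the leading ligand in control 37 and TFEB 43, and Tgfb3 led in the other 4 libraries. The share of Tgfb2 was nearly even, from 9.81% to 13.9% over all 6 libraries.

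Among the receptors, Tgfbr2 held 46.6% to 56.8% in every library. Tgfbr3 exchanged share with Tgfbr1, from 38.4% of receptor TPM in TFEB 43 to 16.0% in TFEB 34, where Tgfbr1 had 29.0%. Of the 3 latent binding protein genes, Ltbp2 had 54.8% in TFEB 34 and 2.27% in TFEB 43, and Ltbp1 had 9.34% and 56.8%. The groups overlapped in all 9 shares. An exact permutation test over the 20 labellings of 3 against 3, two-sided, cannot give a p under 0.1; it gave 0.5 to 1 here, and 0.9 to 1 when adjusted over the 9 shares.

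**Figure D4:**
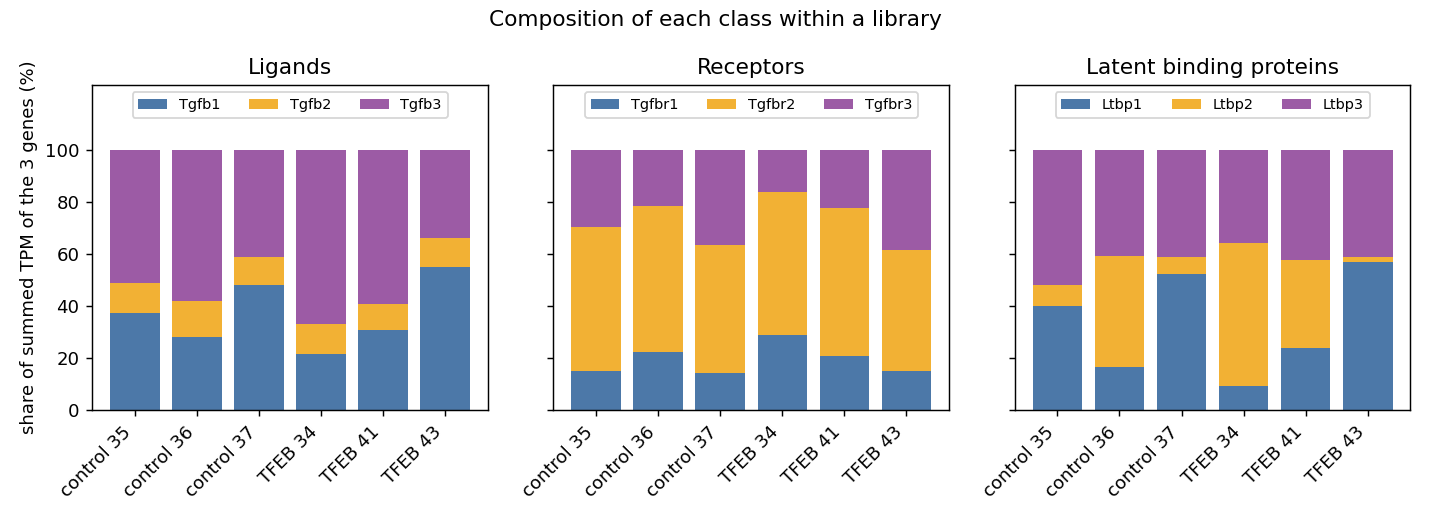
Share in percent of the summed TPM (y) held by each gene of a class in each library (x), for ligands, receptors and the 3 latent binding protein genes. The groups overlap for every gene, and Ltbp2 takes 6.38% to 42.4% in control and from 2.27% in TFEB 43 to 54.8% in TFEB 34.

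The table lists 42 transcript models for the members, and reads shared between models were divided by the authors' quantification, so these shares are estimates. One model each carried Tgfb3 and Tgfbr3, and a single model held 94.2% to 98.2% of Tgfb1 and 84.8% to 93.9% of Tgfb2. Tgfbr2 was divided between NM_029575, with 54.2% to 68.6% in control and 47.8% to 60.3% in TFEB overexpression, and NM_009371. Tgfbr1 was divided mainly between NM_009370, with 33.7% to 68.6% over the 6 libraries, and NM_001312868. Of 23 member models with a mean of at least 1 TPM in genes with several models, 2 had shares that did not overlap between the groups, beside 8.78% of all such models. They were NM_001042660 of Smad7, with 84.5% to 100% in control and 71.3% to 80.6% in TFEB overexpression, and XM_017318072 of Ltbp3, with 6.03% to 9.13% and 2.95% to 6.01%. No test was run on these shares.

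The rest of the pathway was described with 4 lists, in which 0 members passed the test. Of 24 genes of the latent complex and its activation, 17 had a higher value in TFEB overexpression and 7 a lower one, with a median log2 fold change of 0.15 (or -0.26 without TFEB 34). The 3 of them with the smallest p were Dcn, the collagen-binding proteoglycan decorin that can bind TGF-beta (-0.34, SE 0.23), Plau, the urokinase gene (0.63, SE 0.48), and Emilin1, a matrix glycoprotein that restrains TGF-beta processing (0.57, SE 0.51). Thbs1, whose product thrombospondin-1 frees latent TGF-beta, stood at 0.91 (SE 1.12) and at -0.29 without TFEB 34. Ltbp4, the family member that pairs with TGF-beta 1, stood at 0.21; in TPM it was higher than each of the 3 Ltbp members in every library, from 177 TPM in TFEB 43 to 416 TPM in TFEB 34.

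Co-receptors and SMAD signalling genes had values in both directions. Of 30 genes, 13 had a higher and 17 a lower value, with a median log2 fold change of -0.017, and the mean level of the list ran from -0.16 to 0.17 on the log2 scale. Smad2, Smad3 and Smad4, which transmit the signal, stood at -0.085, -0.042 and -0.036. Lrg1, a secreted modulator of endothelial TGF-beta signalling, measured 24.8, 24.7 and 21.47 CPM in the controls (35, 36 and 37), against 18.8, 21.455 and 18.5 CPM in TFEB 34, 41 and 43. Its groups did not overlap, by a small margin, and the log2 fold change was -0.27 (SE 0.11), with an adjusted p of 1.00 in edgeR and 0.0518 before adjustment. It was the 1 gene of these 30 whose groups did not overlap, beside 4.75% of all genes. Single genes of the list varied widely with the library: Pmepa1, a target of the pathway that restrains it, ran from 37.8 CPM in TFEB 43 to 207 CPM in TFEB 34, and Cd109, a co-receptor, from 6.94 to 34.7 CPM in the same libraries. Fkbp1a, which holds the type I receptor inactive, stood at 0.14 (SE 0.11), and the ubiquitin ligase gene Smurf1 at 0.10 (SE 0.093).

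Of 10 tested genes of the activin branch, out of 13 listed, 8 had a higher and 2 a lower value (median 0.11). Acvr1b, a type I activin receptor, stood at 0.14 (SE 0.10), Acvr2a, a type II receptor, at -0.13 (SE 0.13), and Fstl3, a secreted activin inhibitor, at 0.63 (SE 0.75).

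Of 29 tested genes known to respond to TGF-beta, out of 30 listed, 27 had a higher value in TFEB overexpression and 2 a lower one. Their median log2 fold change was 0.54, or -0.20 without TFEB 34, 1.06 without control 36 and 0.31 in limma-voom. It was 0.051 with the activated fibroblast covariate. Of the 11 markers behind that covariate, 9 are themselves in this list of 30. The covariate is thus built largely from the genes it adjusts, and no conclusion is drawn from that value. The mean level of the list ran from -1.12 in control 37 to 0.81 in control 36 and from -1.66 in TFEB 43 to 1.44 in TFEB 34. Acta2, whose promoter drives Cre in this line, was the 1 of the 29 with an unadjusted edgeR p under 0.05, beside 1.21% of all genes. Its log2 fold change was 0.98 (SE 0.22), with an adjusted p of 1.00 in edgeR and 0.12 in DESeq2. Acta2 measured 106, 100.2 and 137 CPM in the controls (35, 36 and 37), against 214, 291 and 174 CPM in TFEB 34, 41 and 43. It did not follow the order of the ligands, since TFEB 43, the lowest library for these, stood above every control. Of the 29 tested genes it was the 1 whose groups did not overlap, beside 4.75% of all genes. The immediate-early gene Junb stood at 0.44 (SE 0.29) and the transcriptional repressor gene Bhlhe40 at 0.27 (SE 0.17).

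For each ligand, the 3 genes with the most similar profile were taken from 10906 genes of at least 5 CPM, by the root mean square difference of log2 CPM over the 6 libraries after each gene was centred. Nearest to Tgfb1 were Mvp, which encodes the major vault protein (0.035), the adaptor gene Gab2 (0.039) and the purine synthesis gene Adss (0.041). Nearest to Tgfb2 were Vgll3, a cofactor of TEAD transcription factors (0.084), the protease gene Adamts12 (0.10) and Fbn1 (0.12), the fibrillin of the microfibrils that carry latent binding proteins. Nearest to Tgfb3 were Adamts2, a procollagen peptidase (0.083), the lactate transporter gene Slc16a3 (0.083) and biglycan, Bgn (0.097). None of these 9 genes passed the test, and their log2 fold changes ran from 0.10 for Adss to 0.66 for Adamts2.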

How the data were processed

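The deposited table lists 62498 RefSeq transcripts by Entrez gene number, with a read count, TPM and FPKM for each library per the file headers. The deposited read counts hold decimals, as an estimated count does, and carry no depth scaling. In each library the deposited TPM column adds up to the same total. Deposited FPKM values account for length and depth and served for 1 alternative. The submitters' processing notes name RSEM 1.3.1, HISAT2 2.1.0, DESeq2 1.4.5, Bowtie2 2.3.4.3 and mm10. No source used here states the strand setting, so overlapping or antisense genes are uncertain. The 8 normalised count columns were empty.

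Counts were summed per gene and rounded; symbols came from RefSeq GRCm38.p6 (117 genes had none, 0.51% of counts). The quasi-likelihood test of edgeR 4.0.16 (R 4.3.3; filterByExpr, TMM, two-sided) compared 3 libraries with 3. Alternatives used limma 3.58.1, DESeq2 1.42.0, other scalings, filters, TPM and covariates, and each library left out. SEs come from the F statistic. log2 CPM used a prior count of 2; shares used scipy 1.17.1, figures matplotlib 3.10.9. Pairs within a group differed in their counts by more than sampling noise (chi-square 43.5 to 149 times its degrees of freedom). In simulated data of 13565 genes with 100 changed 2-fold and 100 changed 4-fold in this comparison, 37% and 87% were recovered with 9 false calls. The changed genes were drawn at random above a minimum mean count, and noise was independent between genes. The members varied more than most genes (median SD of log2 CPM within groups 0.48, against 0.22 over all genes). These rates therefore do not describe the recovery of the members. The members and lists were chosen with earlier results of these data known. Named genes are the members, Tfeb, Thbs1, the 3 genes of smallest p per list and the 3 nearest profiles per ligand; Ltbp4, Smad2, Smad3, Smad4, Pmepa1, Cd109, Postn, Cthrc1 and Col1a1 were added after their values were seen.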

Additional observations from a re-analysis of the deposited data

How the results depend on the processing

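Under all 16 alternatives edgeR, limma and DESeq2 called 0 of the 10 members. Over all genes DESeq2 called 1 where edgeR called 0. The scalings moved the median of all genes by at most 0.007 (log2). Apart from the fits with a library left out, the one gene whose sign changed was Tgfbr2, at 0.010 with the cardiomyocyte level as a covariate. For some genes limma gave smaller values than edgeR. Ltbp2 stood at 1.31 in edgeR, 0.58 in limma-voom and 0.65 to 0.76 on TPM, and Tgfb3 at 0.68, 0.33 and 0.36 to 0.37. Ltbp3 stood at 0.30, 0.13 and 0.17 in the same settings, and Thbs1 at 0.91, 0.37 and 0.46 to 0.48. The median of the response list was 0.54, 0.31 and 0.31 to 0.33. Other genes hardly moved between edgeR and limma-voom: Plau stood at 0.63 and Dcn at -0.34 in both. The 2 covariate fits and those without a library have fewer degrees of freedom. Without TFEB 34, 7 of the 10 members changed sign, without control 37 2 did (Tgfb2 at -0.027 and Smad7 at -0.033), and without control 35, control 36 or TFEB 43 1 did; the cause was not tested. With each library left out in turn, the median of the members ran from -0.20 to 0.51, that of the latent complex list from -0.26 to 0.44, of the co-receptor and SMAD list from -0.042 to 0.029, of the activin list from -0.13 to 0.24 and of the response list from -0.20 to 1.06. The log2 fold changes of the members whose sign changed ran from -0.050 to 0.37 for Tgfb1, from -0.45 to 0.85 for Tgfb2, from -0.18 to 1.24 for Tgfb3, from -0.11 to 0.65 for Tgfbr1, from -0.22 to 0.15 for Tgfbr2, from -0.32 to 3.37 for Ltbp2, from -0.32 to 0.66 for Ltbp3 and from -0.21 to 0.21 for Smad7. Those of other genes ran from -0.29 to 2.12 for Thbs1, from -0.040 to 0.94 for Emilin1, from -0.19 to 1.12 for Fstl3, from -0.075 to 0.34 for Mvp, from -0.11 to 0.33 for Gab2, from -0.11 to 0.28 for Adss, from -0.42 to 0.96 for Vgll3, from -0.38 to 0.87 for Adamts12, from -0.34 to 0.83 for Fbn1, from -0.25 to 1.14 for Adamts2, from -0.20 to 1.16 for Slc16a3 and from -0.31 to 1.06 for Bgn. The difference in class share, TFEB overexpression minus control in percentage points, ran from -11.7 to 4.96 for Tgfb1, from -3.59 to 13 for Tgfb3, from -3.14 to 2.24 for Tgfbr2, from -9.95 to 1.24 for Tgfbr3, from -19.7 to 4.01 for Ltbp1 and from -0.995 to 25.2 for Ltbp2. Shares of FPKM or of counts kept the sign of all 9 differences. No paired analysis was possible because the library numbers of the groups are not shared.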
